A study of Drosophila melanogaster with 19 samples.

Results

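The Tudor domain gene *tej* (tejas) and 9 further genes of the piRNA pathway were followed in nuclear RNA of *Drosophila melanogaster* outer photoreceptors. The members were taken by FlyBase symbol and are *tej*, *piwi*, *aub*, *AGO3*, *vas*, *tud*, *spn-E*, *zuc*, *krimp* and *qin*, 10 of the 13929 genes in the count tables. *tej* was chosen by its measured counts, which climb with age over D30 to D60, so its values across ages are given as a description without a test. The others show how the rest of the pathway stood in the same libraries.

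PIWI-interacting RNAs (piRNAs) are small RNAs that guide Argonaute proteins of the PIWI class to transposon transcripts and silence them. Long precursors are cut on the outer mitochondrial membrane or between paired Argonautes in nuage, a granule around the nucleus, where Tudor domain proteins hold helicases and Argonautes together. The pathway is known above all from the gonads, and most of its genes are regarded as germline genes.

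The 19 libraries fall into 7 groups. There are 3 libraries for each of 5 ages, counted in days from eclosion, at D20, D30, D40, D50 and D60, while constant darkness (DD) and the light:dark cycle (LD) have 2 each. All flies were males of 1 genotype, which is *w* in the labels (w1118 in the study's methods) and carries UAS-GFP-Msp300KASH at attP2, rh1-GAL4 and *ry*[506], so no group lacks the tag. The driver is the promoter of *Rhodopsin 1*, which marks outer photoreceptors with GFP on the nuclear membrane, and tagged nuclei were enriched from pooled heads with an antibody. The aged flies lived in a light:dark cycle at 25 °C and were collected at ZT 6. No label gives the age of the DD and LD flies. Their count columns are headed day 10 while their titles read D101. Replicate numbers come from the titles. The p-values measure the spread between these pools, except where a fit is said to share the spread over genes.

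Libraries of D30 to D60 were shallow, at 629634 to 864536 counts, against 4525799 to 5100377 at D20 and 16255052 to 19704692 in DD and LD. Levels are given as counts and as CPM (counts scaled to library size, the usual unit), scaled within each of the 2 tables. In this bulk RNA, fewer cells of a type and less RNA per cell cannot be told apart. The 10 outer photoreceptor markers summed to 61194 to 91603 CPM in the libraries of D30 to D60. DD and LD libraries were uneven within their groups: of genes with at least 50 counts in 1 library, 6.97% in DD and 27.8% in LD had 0 counts in the other, against 0 at every age. This touches each member value in DD and LD.

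*tej*, which encodes a nuage protein with a LOTUS and a Tudor domain that binds Vasa and Spindle E, had 14, 29 and 33 counts at D30. It had 52, 49 and 38 counts at D40. It had 107, 112 and 156 counts at D50 and 245, 264 and 230 counts at D60. D30 and D40 overlapped once scaled, whereas every D50 library stood above every D40 library and every D60 library above every D50 library. The mean level was 36.5 ± 13.3 CPM at D30, 55.5 ± 8.20 CPM at D40, 156 ± 37.0 CPM at D50 and 350.1 ± 24.7 CPM at D60 (SD, n = 3 each). The D60 mean was thus 9.59 times that of D30. Most of the climb lay after D40, since D50 stood at 2.81 times D40 and D60 at 2.24 times D50, while D40 stood at 1.52 times D30.

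**Figure D1:**
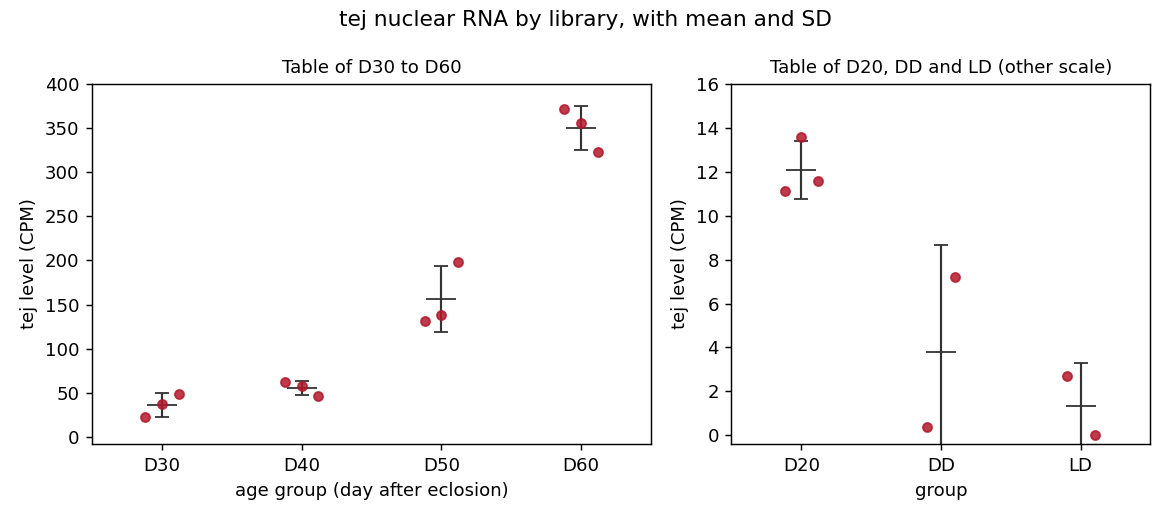
Level of *tej* in CPM (vertical axes) for each library (points), with the group mean and SD (bars); the left panel holds the ages D30 to D60 and the right panel D20, DD and LD on a smaller scale. D60 libraries lie between 323 and 372 CPM, D30 libraries between 22.7 and 49.3 CPM, and no library of the right panel exceeds 13.6 CPM.

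On the log2 scale the fitted change of *tej* was 3.25 for D60 against D30, 2.10 for D50 against D30 and 0.60 for D40 against D30. The slope over D30 to D60 was 1.15 per 10 days, which ranked 30 of the 4745 genes fitted. Leaving out 1 library at a time kept the slope between 1.12 and 1.24. The D40 value was the least settled, at 0.38 to 0.86 over the same omissions, and was 0.29 without both replicate 1 libraries of D30 and D40.

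At D20 *tej* had 52, 54 and 48 counts, a mean of 12.1 ± 1.3 CPM (SD, n = 3). The fitted log2 difference of D30 over D20 was 1.69. D20 lies in the other table and was sequenced several times deeper, so age, table and depth cannot be told apart for that step. Within its own table, D20 stood above all 4 DD and LD libraries, which held 0 to 7.22 CPM.

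*tej* (FBgn0033921) lies on the minus strand of chr2R:14300103-14302353 in dm6 and spans 1942 exon bases. No annotated gene overlaps it. *Ih*, which encodes a hyperpolarization-activated channel, ends 7 bases away on the other strand. *Ih* had 111 ± 21.9 CPM at D30, 95.9 ± 33.5 CPM at D40, 99.3 ± 23.2 CPM at D50 and 121 ± 12.2 CPM at D60 (SD, n = 3 each). Its slope was 0.04 ± 0.08 on log2 per 10 days (SE) and did not pass the test (adjusted p = 0.776 in edgeR). The neighbour that meets *tej* end to end was thus not called over D30 to D60. Across the tables it was called higher at D30 than at D20 (log2 change 0.62 ± 0.16, SE, adjusted p = 0.0134 in edgeR). The fitted change of *tej* for that step was 1.69.

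Per kilobase of exon, *tej* and *tud* changed places with age. *tej* stood at 18.8 ± 6.87 CPM per kb at D30, 28.6 ± 4.22 at D40, 80.4 ± 19.1 at D50 and 180.3 ± 12.7 CPM per kb at D60 (SD, n = 3 each). *tud* stood at 40.6 ± 4.23 CPM per kb at D30, 45.6 ± 2.58 at D40, 45.9 ± 3.29 at D50 and 49.8 ± 1.88 CPM per kb at D60. The highest mean of any other member was 3.38 CPM per kb, of *AGO3* at D60, so the remaining 8 members were rare at each of these ages.

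The genes whose profile was closest to that of *tej* were ranked by Pearson's r of log2 CPM over the 12 libraries of D30 to D60. These points share 4 ages, 1 table and the choice of *tej*, so r is a description. *dbr* led at 0.995, followed by *Shab*, a voltage-gated potassium channel, at 0.990, and *Mettl3*, the RNA adenosine methyltransferase, at 0.986. *Evi5*, a GTPase-activating protein for Rab proteins, had 0.985 and *Ets97D*, an ETS transcription factor, 0.983. *Mettl3* averaged 309 ± 9.75 CPM at D60 and 18.0 ± 8.63 CPM at D30 (SD, n = 3 each), a fitted log2 difference of 4.07. *Shab* shared the shape but not the size, with 1982 ± 38.1 CPM at D60 and 1165 ± 119 CPM at D30. Among the members, *spn-E* had r = 0.868 (place 143 of 4744), *tud* 0.777 (place 314) and *qin* -0.03 (place 2457).

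Next, it was asked whether the pathway follows *tej* over D30 to D60. Of the 9 other members, 3 had enough counts to pass the filter on low counts in the slope fit. Of these, *spn-E* rose, and *tud* and *qin* did not pass the test. Over all 4745 genes tested, 18.9% were called and 10.6% were called higher. 1 of 3 is too few members to be read against that share.

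**Figure D2:**
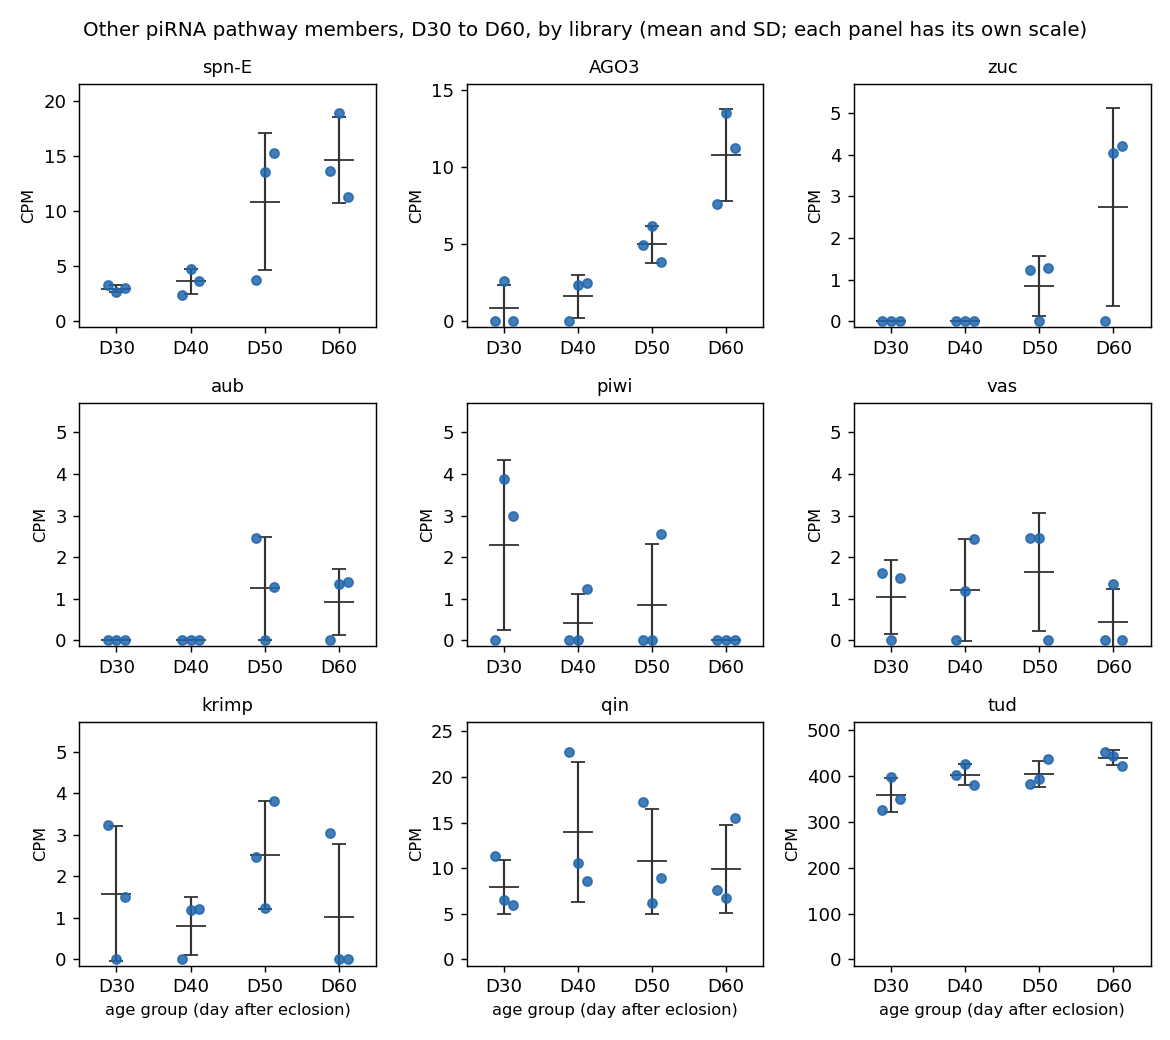
Level in CPM (vertical axes, 1 scale per panel) of the 9 members other than *tej* in each library of D30 to D60 (points), with the group mean and SD (bars). *spn-E* and *AGO3* stand higher at D60 than at D30 in every library, *tud* lies between 326 and 454 CPM throughout, and *zuc*, *aub*, *piwi*, *vas* and *krimp* stay under 5 CPM.

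*spn-E* (spindle E) encodes an RNA helicase with a Tudor domain, needed for the cycle in which Aubergine and AGO3 cut transcripts in turn. It had 2 counts in each D30 library and 2, 4 and 3 at D40. It had 3, 11 and 12 counts at D50 and 9, 14 and 8 counts at D60. Every D60 library stood above every D30 and D40 library, and at D50 replicate 1 stayed at the D40 level while the other replicates were among the D60 values. This is a description, since the share of genes with such low counts that lie apart was not measured. The mean was 2.94 ± 0.328 CPM at D30, 3.59 ± 1.16 CPM at D40, 10.8 ± 6.26 CPM at D50 and 14.6 ± 3.89 CPM at D60 (SD, n = 3 each). Its slope was 0.84 ± 0.18 on log2 per 10 days (SE), with an adjusted p of 0.00267 in edgeR's quasi-likelihood test over all genes. The call held in each of the 12 fits that left out 1 library (adjusted p 0.00198 to 0.0194). *spn-E* passed the filter through its D50 and D60 libraries, so its rise partly decided that it was tested. With no filter the slope was 0.83 with an adjusted p of 0.00163.

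In the pairwise fits *spn-E* was below the filter. Pooled over libraries, it had 31 counts at D60 and 6 at D30, a ratio of 5.14 (exact 95% interval 2.11 to 15.1, counting error only). With no filter the D60 over D30 log2 change was 2.25 (adjusted p = 0.00266 in edgeR), and in DESeq2 the adjusted p was 0.0852. That edgeR fit shared the spread over genes, so its p does not measure the spread of *spn-E* between libraries. The gene 50 bases beyond its end on the other strand, *cv-d*, had a slope of 0.19 ± 0.16 and was not called (adjusted p = 0.465 in edgeR).

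*AGO3* is the PIWI Argonaute that takes sense piRNAs and pairs with Aubergine. It had 0, 2 and 0 counts at D30 and 0, 2 and 2 at D40. It had 4, 5 and 3 counts at D50 and 5, 10 and 8 counts at D60. All D50 libraries stood above all D30 and D40 libraries, and all D60 libraries above all D50 libraries, although 10 counts was the most any of them held. The share of genes with such low counts that lie apart in this way was not measured, so the separation is a description. Pooled, there were 23 counts at D60 against 2 at D30, a ratio of 11.4 (exact 95% interval 2.83 to 100.1, counting error only). *AGO3* was removed by the filter. In the edgeR fit with no filter its slope was 1.18 ± 0.26 on log2 per 10 days (SE, adjusted p = 8.01e-04), and D60 over D30 was 3.26 ± 0.82 (adjusted p = 0.00125). Both calls held when any 1 library was left out, with adjusted p up to 0.0115 for the slope and 0.0234 for D60 against D30. The D60 against D30 fit shared the spread over genes, so its p does not measure the spread of *AGO3* between libraries. DESeq2, which called 11.7% of genes for the slope, called it too (adjusted p = 0.00318) but not D60 against D30 (adjusted p = 0.0808). *AGO3* spans chr3L:23554593-23689640 with 109 annotated transposons in or within 1000 bases of that span, and their part in its counts was not tested.

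*zuc* (zucchini) encodes the mitochondrial nuclease that cuts piRNA precursors. It had 0 counts in all D30 and D40 libraries, 1, 0 and 1 at D50, and 0, 3 and 3 at D60. D60 and D30 libraries overlapped at 0. The 6 counts of D60 were at least 1.99-fold higher than the floor of 3 counts over the D30 group. With no filter its slope passed in edgeR (adjusted p = 0.0149), but it rested on 8 counts, missed without D60 replicate 2 and without D60 replicate 3 (adjusted p up to 0.0978), and had no adjusted p in DESeq2. *zuc* shares 67 exon bases with *CG34163* on the other strand.

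With no filter, 3 of the 9 members other than *tej* were thus called as rising and 0 as falling, where 7.93% of 12228 genes were called and 5.05% were called higher. These members are again too few to be read against that share, and *zuc* rested on 8 counts. The median slope of the 9 was 0.09, against 0.02 over all genes of that fit. *spn-E* and *AGO3* were the members whose D60 and D30 libraries lay apart on low counts, and *tud* lay apart on higher counts. All D60 libraries lay above all D30 libraries for 20.5% of the 4068 genes that passed the filter of that comparison. Neither *spn-E* nor *AGO3* is among those genes, so that share does not cover them. The 3 called genes belong to different steps, a nuage helicase, an Argonaute and a precursor nuclease.

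**Figure D3:**
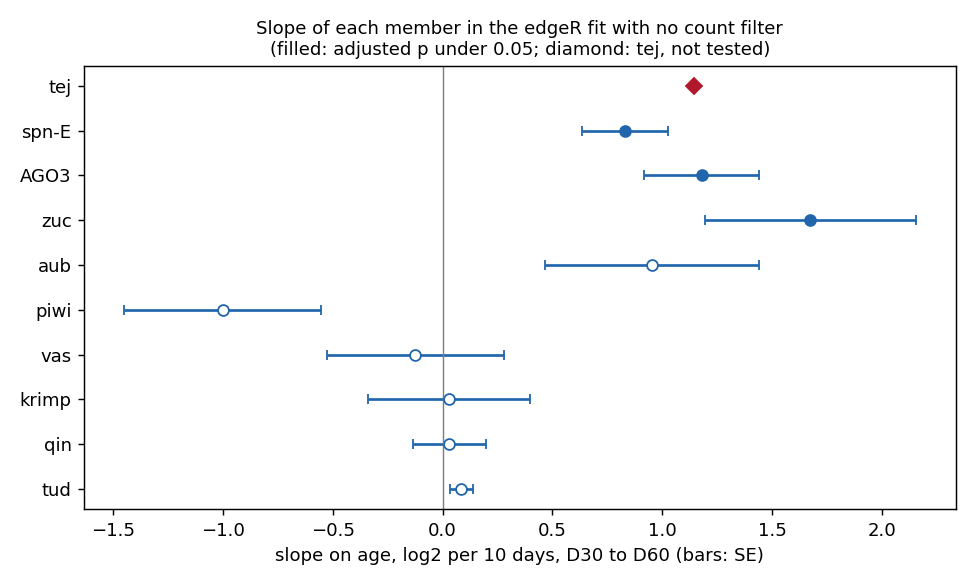
Slope on age over D30 to D60 (horizontal axis, log2 per 10 days) of each member (rows) in the fit with no filter, with SE bars; filled circles have an adjusted p under 0.05 and the diamond marks *tej*, which was not tested. *spn-E* (0.83), *AGO3* (1.18) and *zuc* (1.67) are filled, and *tud* and *qin* sit near 0; slopes of *zuc* and *aub*, which were at 0 in all D30 and D40 libraries, depend on the prior count.

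*tud* (tudor) encodes the large protein with repeated Tudor domains that binds methylated Argonautes, and collected the most counts of the members in every group, over 8830 exon bases. Its levels were 326, 399 and 350.0 CPM at D30, and 403, 425 and 380 CPM at D40. They were 384, 393 and 438 CPM at D50, and 454, 444 and 422 CPM at D60. All D60 libraries lay above all D30 libraries, as did those of 20.5% of the 4068 genes tested there, and the ages between overlapped. The log2 change of D60 over D30 was 0.31 ± 0.11 (SE) with an adjusted p of 0.0645 in edgeR, and the slope was 0.09 ± 0.04 (adjusted p = 0.144). The D60 value lay close to the threshold and passed it without D30 replicate 1 (0.23, adjusted p = 0.0338), with library size alone (0.33, adjusted p = 0.0497) and under a filter of 10 counts in every library (0.34, adjusted p = 0.0359).

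*qin* encodes a protein with an E3 ligase domain and Tudor domains that keeps Aubergine from pairing with itself. Its libraries held 7, 5 and 4 counts at D30, 19, 9 and 7 at D40, 14, 5 and 7 at D50 and 5, 5 and 11 at D60. All 4 ages overlapped. Its slope was 0.04 ± 0.17 and did not pass (adjusted p = 0.922 in edgeR), and it changed sign in 4 of the 12 fits that left out 1 library. *qin* shares 21 and 17 exon bases with *CG14304* and *CG31224* on the other strand.

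The other PIWI Argonautes held few counts. *piwi*, the nuclear Argonaute that silences transposon transcription, had 0, 3 and 2 counts at D30, 0, 0 and 1 at D40, 0, 0 and 2 at D50, and 0 in all D60 libraries. The floor of 3 counts over D60 is 1.39 CPM, for counting error only. Its slope with no filter was -1.0 (adjusted p = 0.194 in edgeR), and did not pass. It passed in 1 of the 12 fits that left out 1 library (-1.69 without D50 replicate 3, adjusted p = 0.0300). *aub*, the cytoplasmic Argonaute of antisense piRNAs, had 0 counts at D30 and D40, 2, 0 and 1 at D50 and 0, 1 and 1 at D60, and its slope passed in none of the 12 fits that left out 1 library (adjusted p 0.209 to 0.387 in edgeR).

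*vas* (vasa), the DEAD-box helicase of nuage, had 0 to 2 counts in every library of D30 to D60, and *krimp* (krimper), a Tudor protein that gathers unloaded AGO3, had 0 to 3. Neither passed in a fit with no filter. At 2145371 to 2524955 counts per age, 3 counts correspond to 1.2 to 1.4 CPM, so these genes were at the limit of detection at each age. *vas* overlaps *vig* and shares 563 exon bases on the same strand with *solo*. *piwi* shares 191 exon bases with *SCAR* and *aub* 79 with *TTLL4A*, both on the other strand.

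Seen pairwise, D40 against D30 gave 0 of 1 tested member called (*tud*, adjusted p = 0.845) where 0.0238% of genes were called. D50 against D30 gave 0 of 1 (*tud*, log2 change 0.20, adjusted p = 0.588 in edgeR) where 1.36% were called. D60 against D30 gave 0 of 1 where 23.6% were called. Of these 3 tests of *tud*, 1 had an unadjusted p under 0.05 (0.0169 at D60), and DESeq2 called 0 members in each comparison, where it called 0.0626% (D40), 1.31% (D50) and 9.05% (D60) of genes. These comparisons share the D30 libraries. With no filter, D60 against D30 called *spn-E* and *AGO3*, 2 of 9, where 10.4% of genes were called. That fit shared the spread over genes, and 9 members are too few to be read against that share.

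A wider list of 32 piRNA genes outside the members, 31 of them in the table, was set beside *tej*. Of the 31, 19 never reached 10 counts in a library of these ages, and 10 passed the filter of the slope fit. Of the 10, 1 rose and 0 fell, which is close to the 10.6% of all genes called higher and so says nothing particular about the list. Their median slope was 0.02, against -0.0032 over all genes. The 1 that rose was *armi* (armitage), an RNA helicase that hands precursors to Zucchini. It averaged 5.91, 8.78, 9.54 and 14.6 CPM at D30, D40, D50 and D60, with a slope of 0.40 ± 0.13 (SE, adjusted p = 0.0394 in edgeR). *armi* passed the filter through its 3 D60 libraries alone, so its high values there decided that it was tested. The call was lost in 11 of 19 other fits, with no filter and in DESeq2 among them (adjusted p up to 0.151).

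By role, 1 of 7 other nuage and Tudor domain genes was tested in the slope fit, and it was not called. This was *tapas*, whose LOTUS and Tudor domain protein is related to Tejas and which averaged 402 CPM at D60 and 286 CPM at D30. Its D60 over D30 log2 change was 0.50 ± 0.11 (SE, adjusted p = 0.00783 in edgeR). The call was lost without D60 replicate 1 and when all ages shared the fit (adjusted p up to 0.138), and its slope of 0.13 did not pass (adjusted p = 0.211). *papi*, a mitochondrial Tudor protein, had 1 to 9 counts per library.

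Of 7 mitochondrial and processing genes, 4 were tested, among them *armi*. *Gasz*, *mino* and *Nbr* had slopes of -0.13 to 0.03 and were not called. Of the 7 genes for transcription and export of piRNA clusters, *Nxf3* and *Hel25E* were tested and not called, and *rhi*, *del*, *cuff* and *moon*, the core of cluster transcription in ovary, were at or under 12 counts in each library. Of the 8 genes of nuclear silencing in the table, *egg*, *wde* and *Su(var)3-3* were tested with slopes of -0.12 to 0.10 and none was called. Neither *csul* nor *vls*, which methylate Argonautes for Tudor binding, passed the filter.

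The other small RNA pathways were taken as a contrast. Of 11 siRNA and miRNA genes, 8 were tested, and *AGO2*, the siRNA Argonaute, rose with a slope of 0.15 ± 0.05 (SE, adjusted p = 0.0419 in edgeR). At D60 against D30, *AGO2* rose (log2 change 0.39, adjusted p = 0.0473), and *AGO1*, the miRNA Argonaute, and *pasha*, a partner of Drosha, fell by 0.36 and 0.80 (adjusted p 0.0331 and 0.0357). Each of these calls was lost in some of the other fits, *AGO2* in 14 of 20 for the slope and 9 of 13 at D60, *AGO1* in 7 of 13 and *pasha* in 4 of 13. These changes were smaller in size than the 3.25 of *tej* for D60 over D30. Since *tej* was chosen for its climb and ranked 25 of 4068 genes there, this gap says nothing particular about either pathway.

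**Figure D4:**
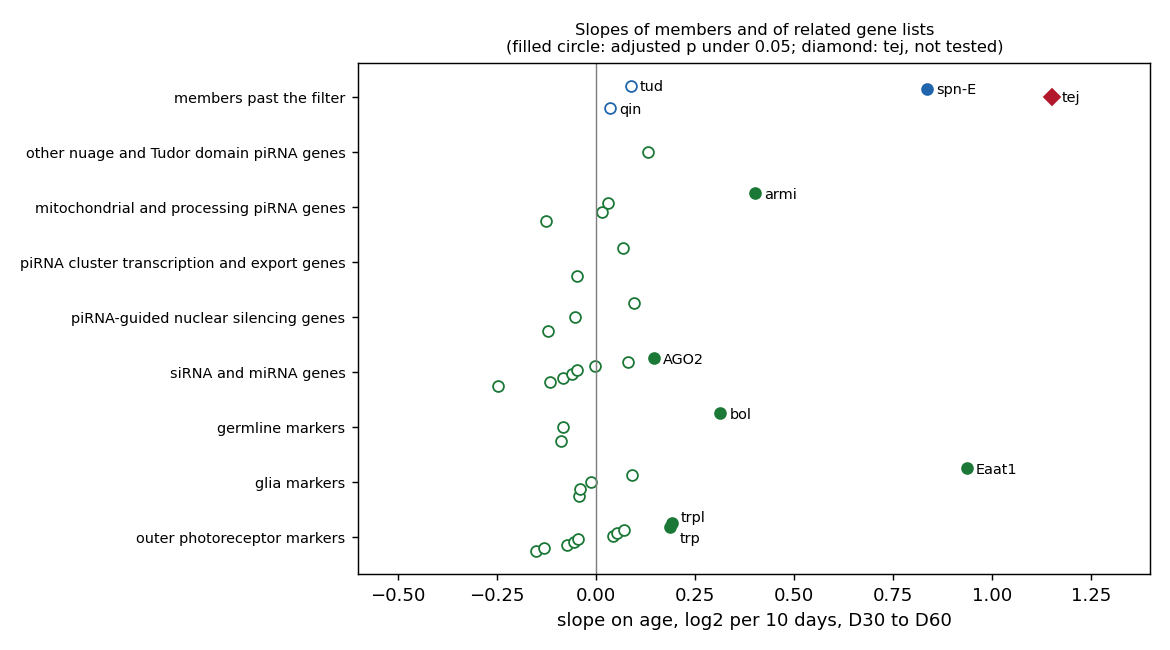
Slope on age over D30 to D60 (horizontal axis, log2 per 10 days) of each tested gene (points) of the members and of 8 related lists (rows); filled circles have an adjusted p under 0.05 and the diamond marks *tej*, which was not tested. *tej* (1.15), *Eaat1* (0.94) and *spn-E* (0.84) lie far to the right, and all other genes except *armi* and *bol* lie between -0.25 and 0.19.

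Markers of other cells were read beside these changes. Of 12 germline markers, 9 never reached 10 counts in a library of D30 to D60, and their summed level was 2.99 to 9.72 CPM at D30, 7.19 to 15.3 at D40, 8.91 to 12.3 at D50 and 7.59 to 13.5 CPM at D60. *nanos* was at 0 in all D50 and D60 libraries and *bam* in all D60 libraries. With no filter, 5 of the 12 markers had D60 over D30 log2 estimates above 0, and the others were below 0. Among the 5 were *can* (3.82), *bgcn* (1.93), *aly* (1.86) and *grk* (0.87), none of them called in edgeR. The list of 12 summed to 737 to 1024 CPM at D30, 584 to 686 at D40, 928 to 1305 at D50 and 1435 to 1580 CPM at D60, nearly all of it *bol* (boule), an RNA-binding protein of meiosis. *bol* rose with a slope of 0.31 ± 0.08 (SE, adjusted p = 0.00609 in edgeR), while *fzo* and *orb* did not pass. The part of these genes in the members' changes was not tested.

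Of 6 glia markers, 5 were tested in the slope fit and 1 rose. This was *Eaat1*, a glutamate transporter, with 335 CPM at D60 and 44.8 CPM at D30 (slope 0.94 ± 0.11, adjusted p = 9.80e-06 in edgeR). The glia list summed to 216 to 243 CPM at D30, 215 to 330 at D40, 238 to 405 at D50 and 490.1 to 555 CPM at D60. *repo*, the defining glial factor, averaged 7.17 CPM at D60 and 8.17 CPM at D30. Whether glial RNA has a part in the members' changes was not tested. Of the 10 outer photoreceptor markers, *trp* and *trpl* rose and 8 were not called.

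D30 was set against D20 across the tables. Of the members other than *tej*, *tud* and *qin* passed the filter, and 1 of 2 was called, where 21.2% of 6380 genes were called. *qin* passed the filter through its 3 D30 libraries alone, the group where it is high, so this count is no support for a change. *qin* averaged 7.93 ± 2.96 CPM at D30, against 2.94 ± 0.458 CPM at D20 (SD, n = 3 each). The D30 libraries lay above the D20 libraries on 4 to 7 counts each, and the log2 change was 1.46 ± 0.45 (SE, adjusted p = 0.0346 in edgeR). The call was lost with no filter (adjusted p = 0.0843, 13.2% of genes called), in DESeq2 (adjusted p = 0.0786, 16.5% of genes called) and in each fit without a D30 library (adjusted p 0.0917 to 0.214). *tud* did not pass, with 358 ± 37.4 CPM at D30 and 396 ± 2.35 CPM at D20 on the scales of their own tables and a joint log2 change of -0.06 (adjusted p = 0.744).

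Of the 31 further piRNA genes, 15 were tested in D30 against D20, with 1 called higher and 2 lower, a share near that of all genes. *mino* rose by 0.77 and *tapas* fell by 0.93 on the log2 scale (adjusted p = 0.00159 and 8.23e-05 in edgeR), both called in all 12 other fits, and the gene of the heterochromatin protein HP1a fell by 1.29 (adjusted p = 0.0177), called in 8 of 11. The change of *tapas* thus ran against that of *tej* here.

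Markers of other cells moved over the same step. The germline list summed to 737 to 1024 CPM at D30 and 265 to 354 CPM at D20, with 2 of 3 tested genes called higher, *bol* by 1.75 and *fzo* by 1.19 on log2. The muscle list summed to 34.0 to 95.9 CPM at D30 and 18.3 to 30.3 CPM at D20, and its 1 tested gene, *Mhc*, a myosin heavy chain, rose by 1.42, a call lost without D30 replicate 2 (adjusted p = 0.130 in edgeR). Lower at D30 were the glia list, at 216 to 243 CPM against 326 to 343 CPM at D20, and the fat body and hemocyte list, at 366 to 849 CPM against 913 to 1019 CPM at D20. Of these lists 1 of 5 and 2 of 3 tested genes fell, *Eaat1* by 1.56, *Hml*, a hemocyte gene, by 1.51 and *Lsp2*, a larval serum protein of fat body, by 1.55. In the glia list 3 of the 5 estimates were above 0, with *moody* at 1.43 (adjusted p = 0.0584 in edgeR). Of 4 inner photoreceptor genes, *Rh3* and *Rh4* were called higher, by 1.08 and 1.35, and the other estimates were below 0. Outer photoreceptor markers, which summed to 67882 to 76159 CPM at D30 and 97624 to 100375 CPM at D20, had 1 called higher and 4 lower of 10. Their part in the values of *tej* and *qin* was not tested.

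The deeper D20 libraries gave a closer look at the rare members. *AGO3* had 4, 2 and 6 counts at D20, *vas* 3, 3 and 7, *zuc* 3, 3 and 2, *piwi* 1, 2 and 4 and *krimp* 1, 2 and 2. *spn-E* had 2 counts in each, a mean of 0.470 ± 0.0384 CPM (SD, n = 3). *aub* had 2, 0 and 0. All members had counts at D20, although those of *aub* came from 1 library and lie under the floor of 3 counts over the group. Per kilobase of exon *tej*, at 6.22 ± 0.672 CPM per kb, stood second to *tud* at 44.8 ± 0.266 (SD, n = 3 each).

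Light conditions were compared with 2 libraries in each group. 0 of the 5 members tested were called in DD against LD, where 0.025% of 8003 genes were called in edgeR. 0 members had an unadjusted p under 0.05 there. In simulated counts with a log2 change of 2, the DD against LD test recovered 28.5% of the changed genes, so 0 calls cannot show that members were unchanged. In DESeq2, 1 of the members (*spn-E*) and 9.47% of 8452 genes were called.

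**Figure D5:**
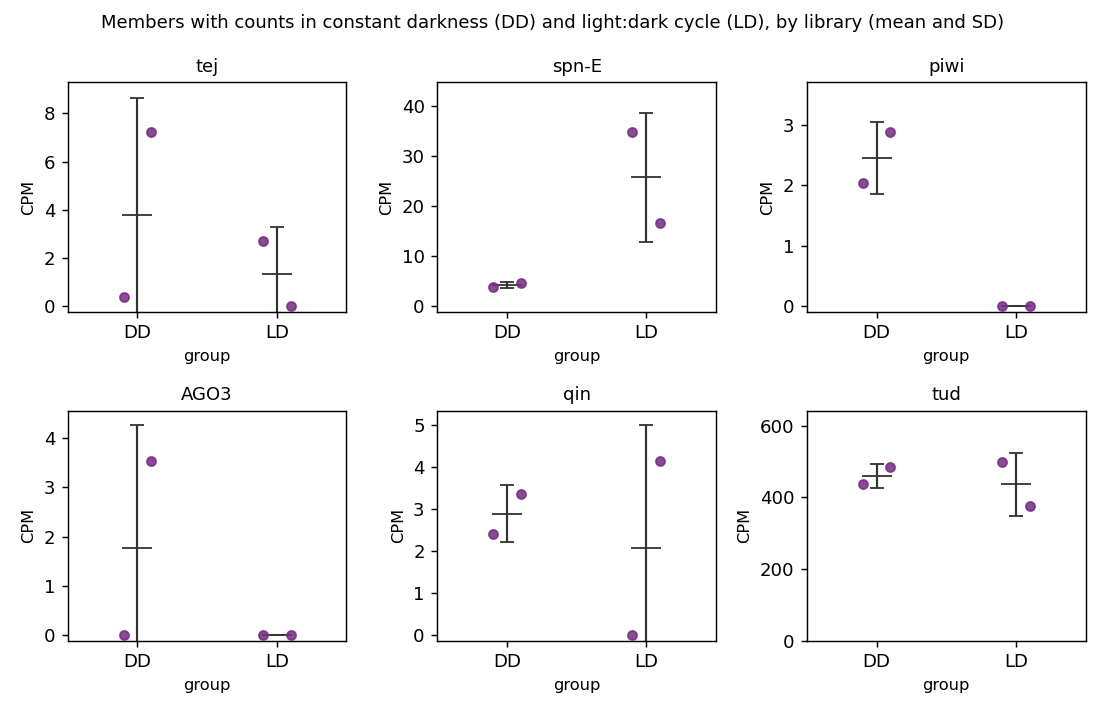
Level in CPM (vertical axes, 1 scale per panel) of 6 members in the 2 DD and 2 LD libraries (points), with mean and SD (bars). *spn-E* lies at 3.81 and 4.67 CPM in DD and at 34.9 and 16.7 CPM in LD, *piwi* has counts in DD only, and the *tej*, *AGO3* and *qin* panels each have a library at or near 0 beside a higher one of the same group.

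*spn-E* had 60 and 86 counts in DD, against 668 and 412 in LD, which is 3.81 and 4.67 CPM in DD and 34.9 and 16.7 CPM in LD. The groups did not overlap, as was so for 16.7% of genes in that direction. The log2 change of DD over LD was -2.61 ± 1.10 (SE, adjusted p = 0.585 in edgeR), and DESeq2 gave -2.64 with an adjusted p of 0.00784. Leaving out each of the 4 libraries in turn gave -3.03 to -2.02 in edgeR with adjusted p 0.0115 to 1.00. It passed in 1 of these 4 fits (-3.03 without LD replicate 2, adjusted p = 0.0115, on a lone LD library assumed to vary as DD did), and the smallest change, -2.02, came without LD replicate 1. *cv-d*, its neighbour on the other strand, ran the same way, with 207 and 188 counts in DD and 690 and 373 in LD, a log2 change of -1.14 (adjusted p = 0.930).

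Marker lists of muscle, of fat body and hemocytes and of other neurons ran the way of *spn-E*, with summed levels lower in DD. Inner photoreceptor markers ran against it, at 4022.5 to 5182.8 CPM in DD and 2809.5 to 2872.7 CPM in LD. Of their 4 genes edgeR called 0, with 4 at an unadjusted p under 0.05, and DESeq2 called 3. Muscle markers summed to 12.8 to 19.4 CPM in DD and 76.0 to 139 CPM in LD, and fat body and hemocyte markers to 922 to 954 CPM in DD and 1513 to 2169 CPM in LD. Other neuron markers summed to 266 to 305 CPM in DD and 417 to 613 CPM in LD, while the glia list overlapped, at 442 to 444 CPM in DD and 427 to 770.5 CPM in LD. Single genes gave log2 changes of -2.86 for *Mhc*, -2.66 for *Hml*, -1.87 for *Eaat1*, -1.25 for *VGlut*, a glutamate transporter of neurons, and -0.90 for *apolpp*, a lipoprotein of fat body (adjusted p 0.0704 to 0.395 in edgeR). The glia genes were mixed, as 2 of the 6 tested had estimates above 0, *repo* (0.99 ± 2.26, SE) and *Gs2* (0.10 ± 0.25). Outer photoreceptor markers ran against *spn-E*, at 132155 to 144168 CPM in DD and 74908 to 81232 CPM in LD, with *ninaE*, the gene of Rhodopsin 1, at 1.30. Of their 10 genes edgeR called 0, with 5 at an unadjusted p under 0.05, and DESeq2 called 7. Their part in the values of *spn-E* was not tested.

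*piwi* had 32 and 53 counts in DD and 0 in both LD libraries. Set against a floor of 3 counts over LD, the ratio over the groups was 29.8, which covers counting error only. Of genes with at least 50 counts in 1 LD library, 27.8% had 0 in the other, so this ratio is not a lower bound. DD stood above LD for 25.7% of genes, and edgeR gave an adjusted p of 0.585. The divergent neighbour *CG12253* had 32 to 56 counts in DD and 0 to 3 in LD, and *SCAR*, which shares exon bases with *piwi*, had 665 to 679 in DD and 543 to 1040 in LD.

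*tej* had 6 and 133 counts in DD, against 52 and 0 in LD. The groups overlapped, the libraries of each group differed widely, and the log2 change of 1.49 ± 3.42 (SE) turned to -1.81 without DD replicate 2 (adjusted p = 1.00 in edgeR). *AGO3* had 0 and 65 counts in DD and 0 in both LD libraries. *qin* had 38 and 62 counts in DD, against 0 and 102 in LD. *tud*, at 436 and 484 CPM in DD and 498 and 374 CPM in LD, overlapped between the groups (log2 change 0.06 ± 0.19, adjusted p = 1.00).

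*aub*, *vas*, *zuc* and *krimp* had 0 counts in all 4 libraries. The floor of 3 counts over a group is 0.0867 CPM in DD and 0.0824 CPM in LD, for counting error only. It does not cap their levels, since 0 stood beside 2.71 CPM for *tej* in LD and beside 3.53 CPM for *AGO3* in DD. *aub*, *vas*, *zuc* and *krimp* each had counts at D20. Of the 31 further piRNA genes, 19 were tested in DD against LD and 0 were called in edgeR, with 1 at an unadjusted p under 0.05 and 2 called by DESeq2.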

How the data were processed

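Nuclear RNA of enriched outer photoreceptor nuclei was sequenced with the Ovation SoLo kit. The authors deposited raw counts per gene, with no normalization, in 2 tables of the same 13929 genes, one for D30 to D60 and one for D20, DD and LD. The submitters' processing notes name Trimmomatic, STAR, SAMtools, DESeq2 and the builds dm6 and BDGP6. The strand setting and the handling of PCR duplicates are not given in the sources used here, so counts of overlapping genes are uncertain. Both tables were joined by gene ID, and 13866 IDs were matched to the Ensembl annotation of BDGP6 (release 115, dm6 coordinates).

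Tests on the counts were run in edgeR 4.0.16 (quasi-likelihood F-test, R 4.3.3), with TMM factors and its default filter (minimum count 10, minimum total 15), on the groups compared only. Slopes use the 12 libraries of D30 to D60, with 10 days as their unit. A gene was called where its p, adjusted by Benjamini-Hochberg over all genes tested, was under 0.05. Tests were two-sided, and each SE was derived from the log2 change and its F value. In pairwise fits with no filter, edgeR shared the spread over genes, so those p-values do not measure a gene's own spread between libraries. CPM used TMM factors within each table. Likeness to *tej* used log2 CPM with a prior count of 2. Pooled counts have exact 95% intervals and floors of 3 counts, which cover counting error only.

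The members, gene lists and alternatives were chosen with earlier results of these data known. The genes named besides the members were the 5 most like *tej*, genes overlapping or within 1000 bases of a member, and, in each list, genes called or otherwise those with the smallest p of the slope. The replicate numbers of D40 and D30 deviated together (correlation of same-numbered libraries at least 0.126), whereas in the other comparisons the lowest such correlation was at most 0. The replicate numbers come from the sample titles. Alternatives were DESeq2 1.42.0, RLE factors, library size alone, no filter, 10 counts in every library, the replicate block, shared fits and leaving out libraries. The combination of no filter with left-out libraries was added after seeing the data. Scripts were tested on simulated data.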

Additional observations from a re-analysis of the deposited data

How the results depend on the processing

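Over D30 to D60, the count of members called as changing with age was 1 of 3 tested and 1 to 1 when a library was left out. It was 2 in DESeq2, 3 with no filter and 0 under a filter of 10 counts in every library, which left *tud* alone among them. With D20 joined from the other table it was 2 (*spn-E* and *qin*), where age, table and depth cannot be told apart. For D60 against D30 it was 0, 0 to 1 when a library was left out, 1 with library size alone, with 10 counts in every library and with all ages in the fit, and 2 with no filter. For D30 against D20 the 1 call was 0 in DESeq2, with no filter, with 10 counts in every library, with the replicate block (*qin* 1.48, adjusted p = 0.0531 in edgeR) and when any library was left out (0 to 0). For DD against LD, 0 became 1 in DESeq2 and 0 to 1 when a library was left out. The replicate block changed no other call of a member. This includes D40 against D30, where same-numbered libraries deviated together and 0 members were called with or without it. No label says that these libraries were paired.

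The slope of *qin* ran from -0.042 to 0.12 when a library was left out. In DD against LD the log2 change ran from -1.81 to 9.20 for *tej*, from -0.56 to 8.69 for *qin* and from -0.11 to 0.25 for *tud*, which was -0.20 with library size alone. That scaling moved the median of all genes in DD against LD to -0.21, against 0.06, and its calls to 3 higher and 6 lower, against 1 and 1. The other log2 changes of members that passed the filter kept their sign. With no filter, 13 of 49 ranges over left-out libraries held both signs, among them the slopes of *vas* (-0.31 to 0.018) and *krimp* (-0.16 to 0.25) and the D60 over D30 changes of *qin* (-0.13 to 0.64) and *krimp* (-3.21 to 0.35).

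Calls over all genes moved by more than 1.5 times in some fits. For D40 against D30, 1 became 7 (DESeq2), 62 (no filter), 29 (replicate block), 8 (all ages in the fit), 366 (without both replicate 1 libraries) and 0 to 15 (1 library left out). For D50, 57 became 233 (no filter), 151 (all ages) and 21 to 78 (1 library out). For D60, 960 became 632 (DESeq2) and 612 to 1492 (1 library out). For the slope, 896 became 1951 with D20 joined, and for D30 against D20, 1355 became 894 to 1769 (1 library out). For DD against LD, 2 became 800 (DESeq2), 279 (no filter, and with D20 in the fit), 326 (replicate block), 109 (10 counts in every library), 9 (library size alone) and 44 to 2241 (1 library out). The causes were not tested. Depth limits the rare members most: at D30 to D60, 3 counts over an age are 1.2 to 1.4 CPM.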
